A study of Populus euphratica with 12 samples.

Results

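Antisense and intronic circRNAs are the rarest position classes of circular RNA in the juvenile leaves of the desert poplar *Populus euphratica*. In the deposited circRNA files each circRNA carries a type that describes its place relative to an annotated gene. All circRNAs typed antisense or intronic were taken, which gave 31 antisense and 8 intronic ones, 39 of 1149 in all. The remainder comprised 958 sense-overlapping, 88 exonic and 64 intergenic circRNAs. The type was not derived from the expression values.

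*P. euphratica* bears leaves of several shapes on 1 species, and 4 leaf groups were sequenced with 3 libraries each, numbered 1 to 3. Linear (Li) leaves came from trees aged 0 to 3 years, lanceolate (La) from 4 to 6 years, ovate (Ov) from 8 to 12 years and broad-ovate (Bo) from over 20 years, so that leaf shape and tree age cannot be told apart. All were juvenile leaves from the same site in Xinjiang and the same month, with no treatment and no genetic change. The libraries were described by the authors as biological replicates, and how many trees each one pooled is not given in the sources used here.

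A circRNA is a closed loop that forms when the end of a transcript segment is joined back to its own start, and the only reads that identify it are those that cross this back-splice junction. Most plant circRNAs lie on the strand of a protein-coding gene. An antisense circRNA is read from the opposite strand of the gene it overlaps, so its precursor is not the pre-mRNA of that gene, and an intronic circRNA lies inside an intron of its gene on the same strand. Loops of intron sequence are known from lariats, the branched by-products of splicing, that escape debranching. The libraries were made with a dUTP method that keeps the strand. How the strand of each circRNA was assigned is not given in the sources used here, and the antisense type is taken as listed. The gene overlapped by or holding a circRNA is called its host below, and a host is named by the transcript the authors' files pair with the circRNA.

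The circRNA level was given as RPM, the junction reads scaled to the number of reads in the library. Every RPM above 0 was, within 0.01 of a read, a whole multiple of the lowest listed value of its library divided by 2. The lowest value was taken as 2 junction reads. The read numbers below rest on this inference, and a circRNA listed at 0 then had fewer than 2 reads or was not called. The total behind the RPM was 81.5 to 86.0 megareads per library, the lowest listed RPM was 0.0232 to 0.0246, and 3421 to 10106 junction reads were found in all circRNAs of a library. Between 153 and 281 circRNAs were above 0 in a library, with the highest numbers in La3 (281) and Ov3 (280). As a check of the tissue, 12 photosystem symbols (15 mRNAs, of which PSAT1 was matched by its first letters only) summed to 2183 to 5034 FPKM in every library, whereas the shoot meristem symbols KNAT1 and WUS summed to 1.02 to 24.3 FPKM. FPKM stands for fragments scaled by transcript length and library size. SEP1, a floral organ gene, was at 26.7 to 88.4 FPKM and was highest in Li.

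Recurrence over libraries was low. Of the 31 antisense circRNAs, 23 (74.2%) were above 0 in a single library, 5 in 2 libraries and 3 (9.68%) in at least 3, and none was found in all 12. Of the 8 intronic circRNAs, 6 were found in a single library and 2 in 2 libraries. Among sense-overlapping circRNAs 61.4% were found in a single library and 23.5% in at least 3, and 14 were found in all 12. The shares in a single library and in at least 3 were 67.0% and 12.5% for exonic circRNAs and 81.2% and 7.81% for intergenic ones, so that antisense circRNAs lay between these classes. No test is given for these shares, because circRNAs of the same library share its depth.

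Most members rested on few reads. The highest value in any library was only 2 junction reads for 14 of the 31 antisense (45.2%) and for 2 of the 8 intronic circRNAs, against 28.8% of the sense-overlapping ones. A highest value also depends on the number of libraries a circRNA is found in. Over all values above 0, the median was 6 reads for antisense and 4.5 for intronic circRNAs. It was 4 for sense-overlapping, 3 for exonic and 5 for intergenic ones. A value of 10 or more reads was reached by 4 antisense circRNAs (circRNA_0229, circRNA_0581, circRNA_0649 and circRNA_1004) and by 1 intronic circRNA (circRNA_0898). The antisense share was 12.9%, against 17.7% of sense-overlapping, 7.95% of exonic and 9.38% of intergenic circRNAs. In sum, antisense circRNAs had 579 junction reads and intronic ones 54, and sense-overlapping circRNAs had 64670. The last total is that of 958 circRNAs and includes the abundant circRNA_0974. The RPM of all circRNAs summed to 41.1 to 117 per library with circRNA_0974 and to 28.6 to 51.8 without it. The 3 antisense circRNAs found in at least 3 libraries held 436 reads, or 75.3% of all antisense reads.

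The depth behind antisense circRNAs was also compared within each library. The share of circRNAs listed at 2 reads was higher for antisense than for sense-overlapping ones in 7 libraries and lower in 5, with a mean difference of 3.12 percentage points (SD 18.9, n = 12). In the exact two-sided sign-flip permutation test p was 0.569, so no difference was found beyond the spread between libraries. At 3 reads or fewer the mean difference was -7.54 percentage points (exact permutation p = 0.200), which is of the opposite sign.

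**Figure D1:**
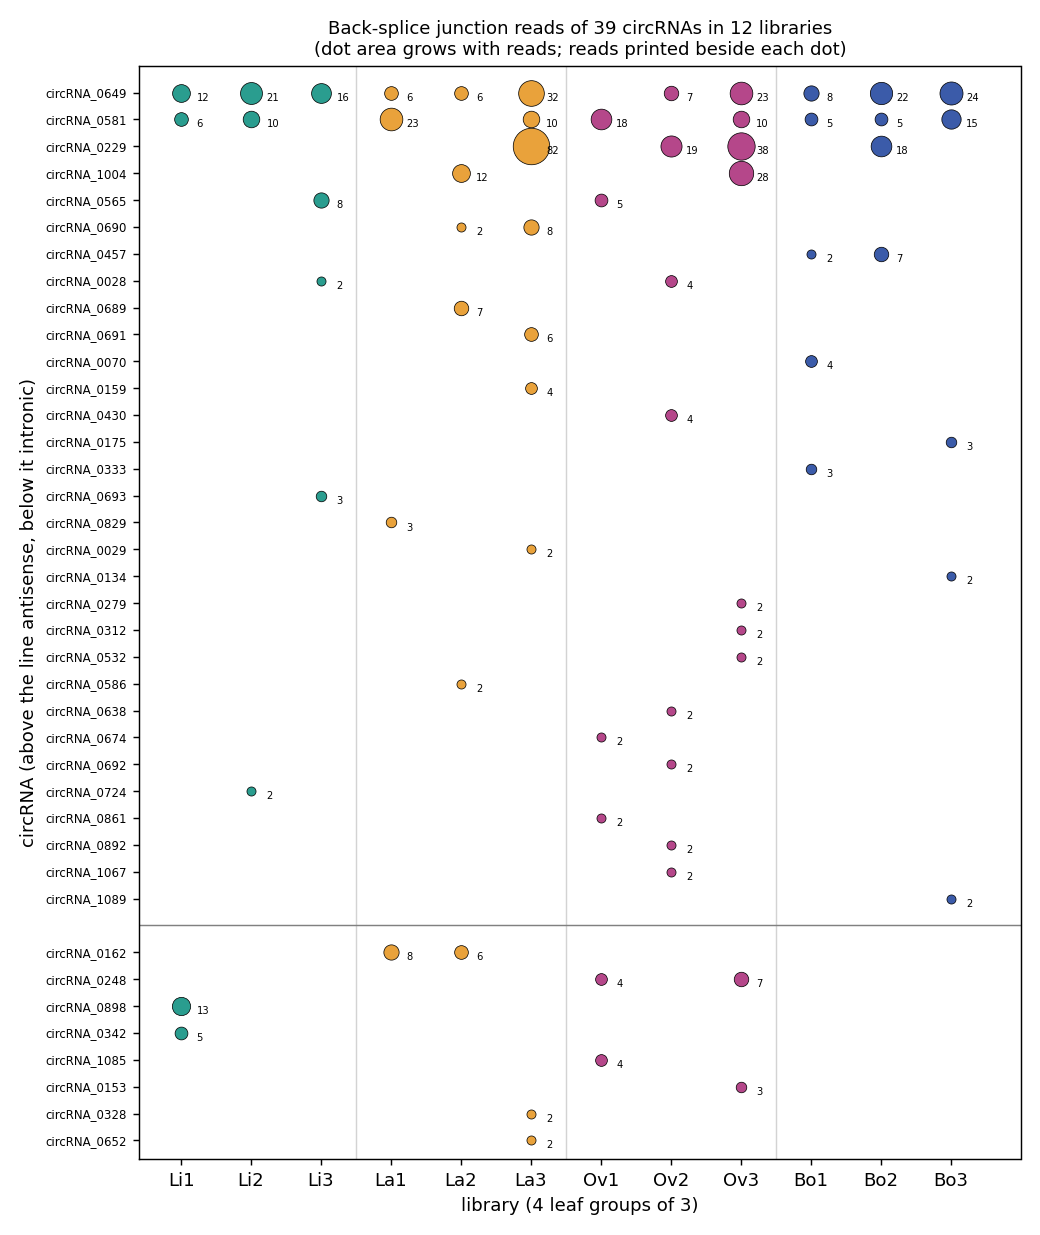
Junction reads of the 31 antisense circRNAs (above the line) and the 8 intronic circRNAs (below it) in the 12 libraries, with the dot area growing with the reads and the number of reads beside each dot. Only circRNA_0649, circRNA_0581 and circRNA_0229 recur in at least 3 libraries, and the largest value is 82 reads in La3.

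Most members were seen in only 1 leaf group. Of the 39, 33 were above 0 in a single group, and only 4 of these 33 were above 0 in more than 1 library of it. Ov leaves had 16 antisense circRNAs (10 of them only there), La leaves had 11 (7 only there), Bo leaves had 9 (6 only there) and Li leaves had 6 (2 only there). Intronic circRNAs numbered 3 each in La and Ov and 2 in Li, with 0 in Bo, and each was seen in that group only. With so many single-library members, presence in only 1 group is close to presence in 1 library and is not read as a group difference. Nor is it read as a trait of the members. The share in a single group was not computed for the other circRNAs, and 61.4% of the sense-overlapping ones were in a single library.

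By library, the number of antisense circRNAs was 2, 3 and 4 in Li1 to Li3, then 3, 5 and 7 in La1 to La3. It was 4, 8 and 7 in Ov1 to Ov3 and 5, 4 and 5 in Bo1 to Bo3. Ov had the highest mean (6.33 ± 2.08, SD, n = 3), followed by La (5 ± 2), Bo (4.67 ± 0.577) and Li (3 ± 1), and all groups overlapped. The exact permutation test over all 15400 splits (one-sided on F) gave p = 0.155, or 0.287 adjusted over the antisense and intronic numbers. Without Ov1 the exact permutation p was 0.0414. Antisense circRNAs made up 1.12% to 3.90% of the circRNAs in a library, and on that share the exact permutation p was 0.466.

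The summed level of the antisense circRNAs was 0.213, 0.389 and 0.337 RPM in Li1 to Li3 and 0.386, 0.348 and 1.68 RPM in La1 to La3. It was 0.331, 0.513 and 1.26 RPM in Ov1 to Ov3 and 0.269, 0.625 and 0.565 RPM in Bo1 to Bo3. La3 and Ov3 stood above the other 10 libraries, and these are also the libraries with most circRNAs above 0. Within La and Ov the remaining 4 libraries lay between 0.331 and 0.513 RPM, which is within the range of Bo. The leaf groups did not differ beyond their spread (exact permutation test, p = 0.515, adjusted 0.515), and p was 0.653 without circRNA_0229 and 0.678 as a share of the circRNA RPM. That share left out circRNA_0974, a sense-overlapping circRNA, without which the RPM of a library summed to 28.6 to 51.8 in place of 41.1 to 117.

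Intronic circRNAs were absent from the lists of all 3 Bo libraries, and so were they from Li2, Li3 and Ov2. Their number was 2 in Li1, 1, 1 and 2 in La1 to La3, and 2 each in Ov1 and Ov3. The sum was 0.213 RPM in Li1, 0.0964, 0.0720 and 0.0468 RPM in La1 to La3, and 0.0981 and 0.120 RPM in Ov1 and Ov3. Neither the number (exact permutation p = 0.287, adjusted 0.287) nor the sum (p = 0.275, adjusted 0.515, exact permutation test) differed between groups beyond the spread. Without Li1 the exact permutation p of the sum was 0.0494. A circRNA under 2 reads would not be listed, so absence in Bo is only a level below 0.0246 RPM or a junction not called.

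**Figure D2:**
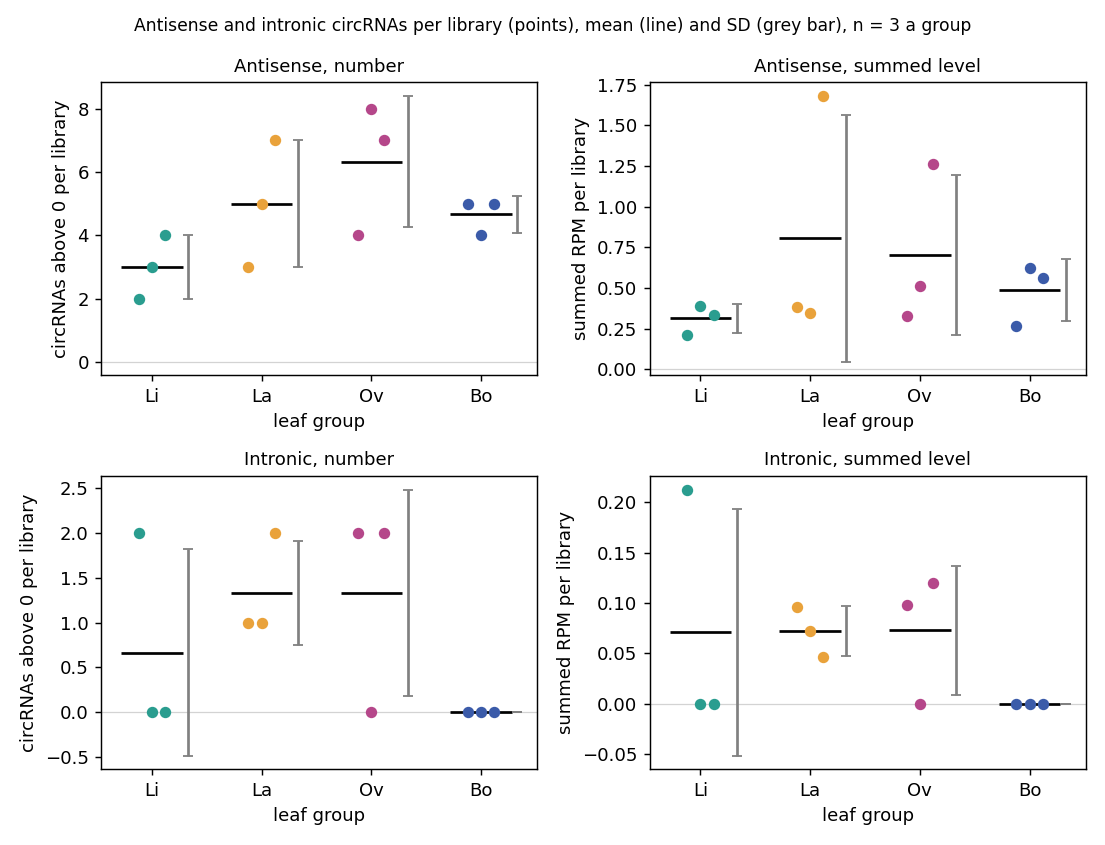
Number of circRNAs above 0 (left) and summed RPM (right) per library for antisense (top) and intronic (bottom) circRNAs, with points for libraries, a line for the mean and a grey bar for the SD of 3 libraries. La3 and Ov3 lie above the other libraries in summed antisense RPM, and all 3 Bo libraries are at 0 for intronic circRNAs.

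circRNA_0649 was the most recurrent member, above 0 in 11 of 12 libraries. It lies on the minus strand of scaffold NW_011499945.1 (8885 to 49680, assembly PopEup_1.0), spans 40796 bp and covers the whole of its host LOC105137508 (transcript XM_011043272.1), a gene of the plus strand that fills 29.6% of the span. Its level was 0.142, 0.248 and 0.186 RPM in Li1 to Li3 (12, 21 and 16 reads) and 0.0723, 0.0720 and 0.374 RPM in La1 to La3. It was 0, 0.0856 and 0.276 RPM in Ov1 to Ov3 and 0.0979, 0.264 and 0.295 RPM in Bo1 to Bo3. The groups overlapped, from a mean of 0.121 ± 0.141 RPM for Ov and 0.173 ± 0.174 for La to 0.192 ± 0.0532 for Li and 0.219 ± 0.106 for Bo (SD, n = 3). It was the only member above 0 in every library of Li, and likewise of La, and both it and circRNA_0581 were above 0 in every library of Bo.

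circRNA_0581 was above 0 in 9 of 12 libraries and had the largest span of all members, 87523 bp on the minus strand of scaffold NW_011499926.1 (323449 to 410971). It overlaps the end of LOC105135661 (transcript XM_011040645.1, plus strand), which covers 15.1% of the span. Its level was 0.0709, 0.118 and 0 RPM in Li1 to Li3, 0.277, 0 and 0.117 RPM in La1 to La3, 0.221, 0 and 0.120 RPM in Ov1 to Ov3, and 0.0612, 0.0601 and 0.184 RPM in Bo1 to Bo3. Each of the Li, La and Ov groups thus had 1 library at 0 beside libraries with 6 to 23 reads. Within groups the spread was as large as the mean in La (0.131 ± 0.139 RPM) and about as large in Ov (0.114 ± 0.110 RPM).

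The junction of circRNA_0581 joins positions that other circRNAs of the same strand also use. Its start is shared with circRNA_0580, a sense-overlapping circRNA of LOC105135662 with 3 reads in 1 library, and its end with circRNA_0583, one of LOC105135659 with 6 reads in 2 libraries. Hence, a circRNA typed antisense to 1 gene began and ended at the junction positions of circRNAs assigned to genes of its own strand. The mRNAs of LOC105135662 summed to 6.16 to 15.5 FPKM over the libraries and the mRNA of LOC105135659 was at 0.0236 to 2.22 FPKM.

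circRNA_0229 had the highest value of any member, and it was patchy. It was at 0 in all 3 Li libraries, at 0, 0 and 0.958 RPM in La1 to La3 (82 reads in La3), at 0, 0.232 and 0.456 RPM in Ov1 to Ov3 (0, 19 and 38 reads) and at 0, 0.216 and 0 RPM in Bo1 to Bo3 (18 reads in Bo2). The 4 libraries where it was seen held 18 or more reads each, and the other 8 held none that were listed. The circRNA lies on the plus strand of scaffold NW_011499856.1 (1380907 to 1388508, a span of 7602 bp) and overlaps its host LINC1 over only 83 bp, 1.09% of the span, at the 3′ end of the host transcript XM_011022890.1. LINC1 is named after an *Arabidopsis* gene for a coiled-coil protein of the nuclear periphery.

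No group difference was called for these members. The log2(RPM + 0.0116) values of 244 circRNAs above 0 in at least 3 libraries were fitted with limma, and 3 antisense and 0 intronic circRNAs were among them. Each of the 3 had to pass this filter and none was called in any of the 6 pairs of groups at an adjusted p under 0.05, where 0% of the circRNAs tested were called. Without adjustment, 51 circRNAs (20.9%) had p under 0.05 in some pair, and 0 of the 3 did. In the limma F test the adjusted p was 0.716 for circRNA_0229, 0.966 for circRNA_0581 and 0.780 for circRNA_0649. The pair with the largest difference was Ov/Li for circRNA_0229, with a log2 difference of 3.24 (SE 1.80, limma adjusted p = 0.472). With Li at 0 in every library this difference depends on the value added before the logarithm.

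**Figure D3:**
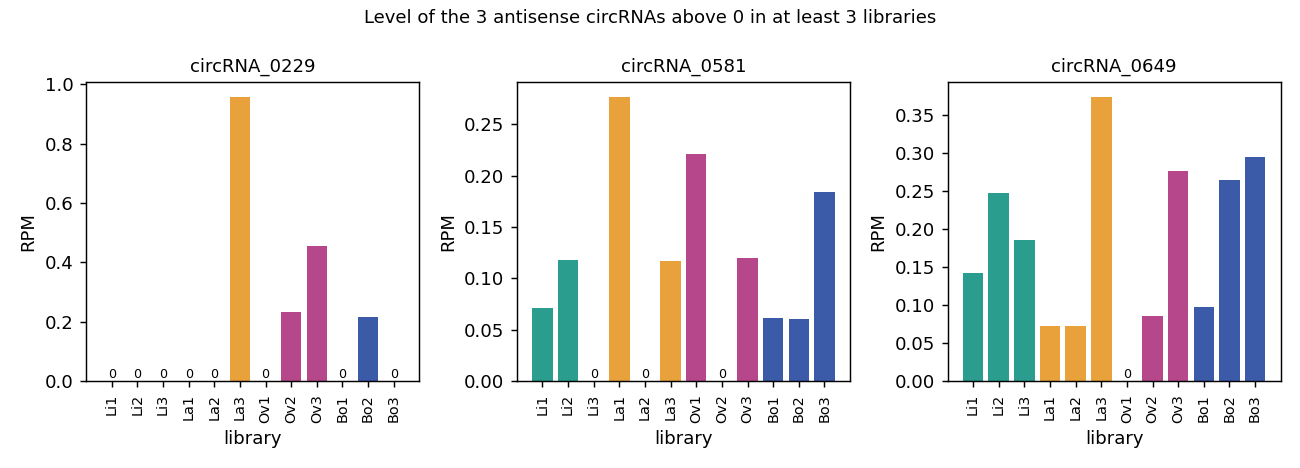
RPM of the 3 antisense circRNAs found in at least 3 libraries, a bar for each library, coloured by leaf group, with 0 printed where a library is at 0. circRNA_0229 reaches 0.958 RPM in La3 and is at 0 in 8 libraries, and circRNA_0649 is at 0 in Ov1 only.

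Among the members in 1 or 2 libraries, the 5 with the highest RPM were circRNA_1004, circRNA_0898, circRNA_0162, circRNA_0690 and circRNA_0565. The antisense circRNA_1004 was at 0.336 RPM in Ov3 (28 reads) and 0.144 RPM in La2 (12 reads). It covers the whole of its host LOC105112521, which fills 9.60% of the span of 14513 bp. The intronic circRNA_0898 was at 0.154 RPM in Li1 (13 reads) and at 0 elsewhere. Its host LOC105109765 is annotated as an RPS6-like disease resistance gene, a family whose *Arabidopsis* member acts in the recognition of pathogens. The intronic circRNA_0162, in LOC105121138, was at 0.0964 RPM in La1 and 0.0720 RPM in La2. The antisense circRNA_0690 was at 0.0240 RPM in La2 and 0.0935 RPM in La3, and the antisense circRNA_0565 at 0.0930 RPM in Li3 and 0.0613 RPM in Ov1.

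Of the other members in 2 libraries, circRNA_0457 had 2 reads in Bo1 and 7 in Bo2, circRNA_0028 had 2 in Li3 and 4 in Ov2, and the intronic circRNA_0248 had 4 in Ov1 and 7 in Ov3. Among the 7 members in exactly 2 libraries, 4 had both libraries in the same group (circRNA_0457, circRNA_0690, circRNA_0162 and circRNA_0248). The same share was not computed for the other circRNAs in exactly 2 libraries, so this count is not read as a trait of the members. The remaining members had 2 to 7 reads in 1 library each.

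The antisense circRNAs fell into short and long ones. In 16 the span was 141 to 1062 bp and in 15 it was 3690 to 87523 bp, and none lay between 1100 and 3600 bp, where 27.3% of the sense-overlapping circRNAs lie. Of the short ones, 15 were within their host and 1 overlapped an end of it. Of the long ones, 2 were within the host, 4 covered the whole of it and 9 overlapped an end. The boundary was set after the spans were seen, so the comparison of both kinds is a description.

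The reads of the long antisense circRNAs were concentrated in 4 members. Of the 16 short ones, 15 were found in a single library, the highest value of any of them was 8 reads, and together they had 55 reads. Of the 15 long ones, 7 were found in at least 2 libraries, and together they had 524 reads. Of these, 476 belonged to circRNA_0649, circRNA_0229, circRNA_0581 and circRNA_1004, and the other 11 long ones had 48 reads in sum (2 to 13 each, 3 of them in more than 1 library), close to the short ones (2 to 10 each). The spliced length given in the files was below the span in 10 of the 15 long and 4 of the 16 short ones. For circRNA_0649 it was 30725 bp of the 40796 bp span, and for circRNA_0581 it was 86070 bp of 87523 bp.

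The place and strand of intronic circRNAs are set by their type. All 8 lay within their host on its strand, as the type requires, with spans of 193 to 41135 bp and a median of 389 bp. In all 8 the spliced length equalled the span, which also follows from lying inside an intron. The longest, circRNA_1085, had 4 reads in Ov1 only. Its host LOC105115895 is annotated as a late embryogenesis abundant protein, a class of proteins known to accumulate in drying plant tissue. Another 2 hosts carry symbols of *Arabidopsis* genes, SCY2 (a plastid protein translocase subunit, host of circRNA_0328) and RS40 (a splicing factor, host of circRNA_0652), and both circRNAs had 2 reads in La3 only.

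Some junction positions were shared with another circRNA. A start or an end was shared by 7 of 31 antisense circRNAs (22.6%) and 3 of 8 intronic ones (37.5%), and by 21.7% of the sense-overlapping ones. The antisense share comes mostly from 1 place, since 5 of the 7 lie over LOC105138835 and share an end with each other. The others were circRNA_0581 and circRNA_0829. The 3 intronic cases each shared an end with a longer sense-overlapping circRNA of the same strand, circRNA_0162 with circRNA_0161 and circRNA_0898 with circRNA_0896 of the same host, and circRNA_0248 with circRNA_0247 of LOC105124423. Of the antisense circRNAs, 22 overlapped no other circRNA. circRNA_0829 shared its start with circRNA_0830 of LOC105107346, and circRNA_0586 lay across the opposite strand of circRNA_0587, which had 177 reads in 7 libraries, whereas circRNA_0586 had 2 reads in La2.

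The most crowded place was LOC105138835. It was the only host of more than 1 member, with 5 antisense circRNAs (circRNA_0689 to circRNA_0693) on the plus strand of scaffold NW_011499963.1. They start at 569745, 569758, 569829, 569836 and 569839 and share the end 569979, which is 50 bp inside the 5′ end of the host transcript XM_011045047.1 (566343 to 570029, minus strand). circRNA_0689 had 7 reads in La2, circRNA_0690 had 2 in La2 and 8 in La3, circRNA_0691 had 6 in La3, circRNA_0692 had 2 in Ov2 and circRNA_0693 had 3 in Li3. They overlap each other and are not independent of each other. Counted as 1, they left p of the number of antisense circRNAs per library at 0.115 in the exact permutation test.

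**Figure D4:**
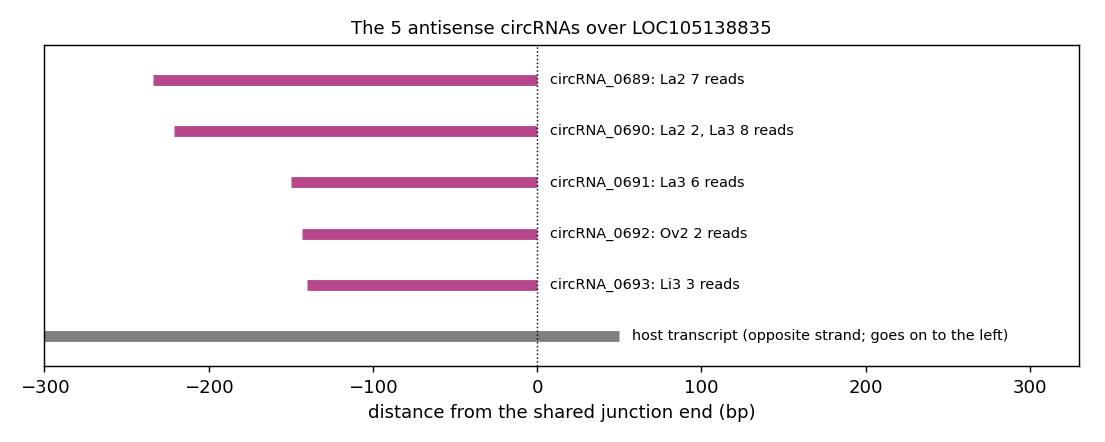
The 5 antisense circRNAs over LOC105138835 as bars, drawn by the distance in bp from the junction end they share, with the libraries and reads of each, and the host transcript in grey. All 5 end at the same position, 50 bp inside the host, and span 141 to 235 bp.

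For the antisense circRNAs, the FPKM of the overlapped mRNA was read in the mRNA files, which held all 27 antisense hosts and all 8 intronic hosts. A bulk FPKM cannot tell fewer cells of a type from less RNA per cell. The median of the mean FPKM was 3.61 for the antisense hosts and 4.05 for the intronic hosts, against 9.98 for the 785 hosts of sense-overlapping circRNAs and 1.75 for all 49676 mRNAs. The range of the antisense hosts was wide, as 3 of 27 were under 0.001 FPKM and 8 were at 20 FPKM or more. Summed over all mRNAs of the gene, the median was 7.77 FPKM for antisense and 13.96 FPKM for intronic host genes.

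In some host genes the named transcript was a minor isoform. It held less than 10% of the FPKM of the gene in 3 of 27 antisense and 3 of 8 intronic host genes. More than 1 mRNA was listed for only 7 of the 27 antisense host genes, and for 7 of the 8 intronic ones. LINC1 transcript XM_011022890.1 was at 0.00 to 0.55 FPKM, whereas the 4 LINC1 mRNAs summed to 34.8 to 49.0 FPKM in every library. The host of circRNA_0565, XM_011039932.1, was listed near 0 and its gene was at 11.1 FPKM (mean of 12). Reads of isoforms are divided between them by the estimate, so a single host transcript is uncertain where its gene has several.

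Among the antisense circRNAs, the named hosts of the short ones had the higher median level. The 12 hosts of short ones had a median of 27.8 FPKM and 9 of the 12 were at 5 FPKM or more, and the 15 hosts of long ones had a median of 2.42 FPKM with 4 at 5 FPKM or more. With FPKM summed per gene the medians were 27.8 and 5.28 FPKM, and 10 of 12 short and 8 of 15 long ones were at 5 FPKM or more. Host level by span was not computed for the other types, so this is not read as a trait of antisense circRNAs. A long circRNA can also reach far beyond its named host, which covered 15.1% of the span of circRNA_0581. The hosts of circRNA_0649 (XM_011043272.1, the only mRNA of its gene) and of circRNA_0070 (XM_011043071.1) were at 0 in effect in all 12 libraries, although circRNA_0649 was the most recurrent member. On its own strand circRNA_0649 overlapped the long non-coding transcript TCONS_00040303, which was at 3.13 to 10.8 FPKM. That transcript lies at 49172 to 50478, so it meets only an end of the circRNA (8885 to 49680).

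**Figure D5:**
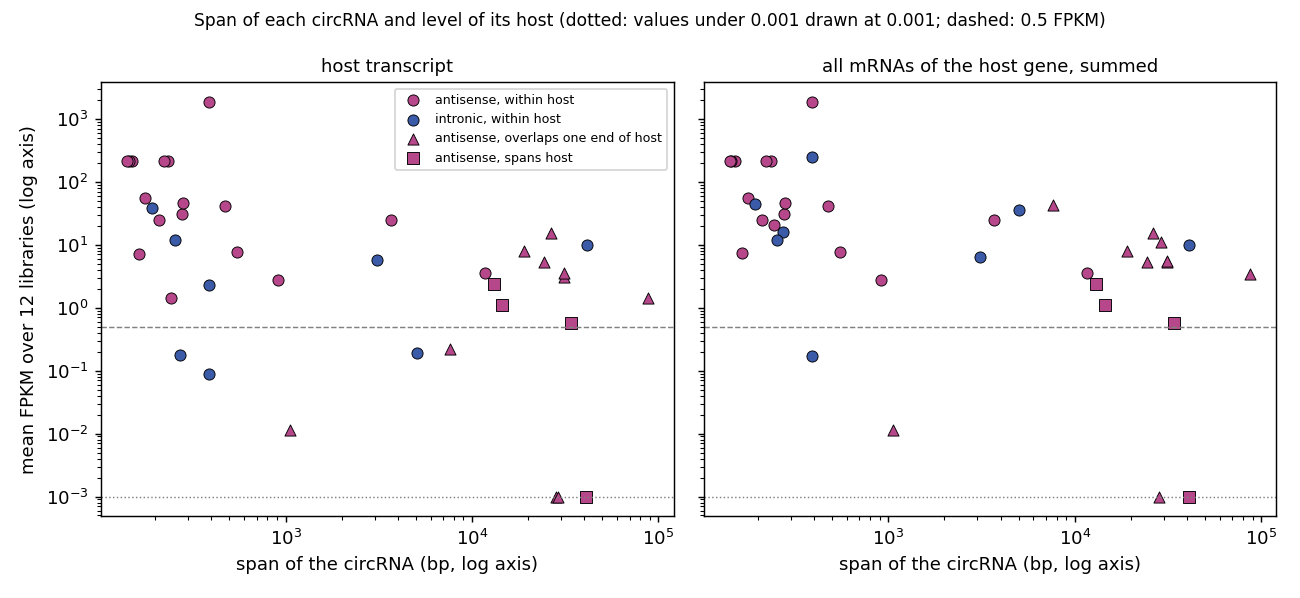
Mean FPKM of the host over 12 libraries (log axis) against the span of each circRNA in bp (log axis), for the host transcript (left) and all mRNAs of the host gene summed (right). Short antisense circRNAs within the host lie mostly over hosts above 5 FPKM, no antisense circRNA has a span between 1100 and 3600 bp, and hosts under 0.001 FPKM are drawn at 0.001.

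The 3 hosts with the highest mean level were those of circRNA_0674, of the 5 circRNAs above and of circRNA_0430. XM_011045045.1 (LOC105138833, host of circRNA_0674) was at 2514, 2067 and 1512 FPKM in Li1 to Li3, 1660.3, 1425 and 1209 FPKM in La1 to La3, 1054, 1725 and 1166 FPKM in Ov1 to Ov3, and 2177, 2335 and 3323 FPKM in Bo1 to Bo3. It stood at the 99.98th percentile of all mRNAs, yet circRNA_0674 had 2 reads in Ov1 only, the library where this mRNA was lowest. XM_011045047.1, on the same scaffold, was at 300, 248 and 139 FPKM in Li1 to Li3, 165, 149 and 166 FPKM in La1 to La3, 117, 173 and 179 FPKM in Ov1 to Ov3, and 230, 240 and 423 FPKM in Bo1 to Bo3. Every Bo library was thus above every La and Ov library for both mRNAs. Bo was the only group in which none of the 5 circRNAs was listed. With each of the 5 in only 1 or 2 libraries, a relation to the level of the host was not tested. XM_011033530.1 (LOC105130841, host of circRNA_0430) was at 18.7 FPKM in Bo3 to 73.5 FPKM in Ov1.

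These differences did not pass the test across all mRNAs. For XM_011045047.1 the log2(FPKM + 1) difference was 0.84 in Bo/La (SE 0.34, limma adjusted p = 0.556) and 0.89 in Bo/Ov (SE 0.34, limma adjusted p = 0.506). For XM_011045045.1 it was 0.998 in Bo/Ov (SE 0.451, limma adjusted p = 0.581). In the limma F test the adjusted p was 0.371 for XM_011045047.1, 0.479 for XM_011045045.1 and 0.712 for XM_011033530.1.

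None of the hosts was called between leaf groups. Of 35 hosts, 27 had a mean of at least 0.5 FPKM and were tested among 32309 mRNAs, and 0 were called by limma in any of the 6 pairs with an adjusted p under 0.05, where 0.730% of all mRNAs were called. In the F test over the groups it was 0 as well, where 0.266% were called. Without adjustment, 13 of the 27 had p under 0.05 in some pair, against 36.8% of all mRNAs. The numbers were 4 in La/Li (13.5% of all mRNAs), 6 in Ov/Li (19.3%), 3 in Bo/Li (18.6%), 0 in Ov/La (2.05%), 5 in Bo/La (8.07%) and 5 in Bo/Ov (8.56%). All 6 in Ov/Li and all 3 in Bo/Li were higher than in Li. The direction of all mRNAs with an unadjusted p under 0.05 was not computed, so this is not read as a trait of the hosts. With FPKM summed per gene, 0 of 31 host genes were called, where 1.64% of all genes were.

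The hosts nearest to a call, chosen after their values were seen, were LOC105115895 and LOC105126127. LOC105115895 (XM_011012966.1), the late embryogenesis abundant gene that holds circRNA_1085, was at 0.593, 0.550 and 1.91 FPKM in Li1 to Li3, 2.38, 1.15 and 12.3 FPKM in La1 to La3, 34.5, 3.32 and 11.6 FPKM in Ov1 to Ov3, and 11.9, 13.4 and 26.7 FPKM in Bo1 to Bo3. All Ov and Bo libraries were above all Li libraries. The log2 difference was 3.16 in Bo/Li (SE 0.78, limma adjusted p = 0.0931) and 2.69 in Ov/Li (SE 0.78, limma adjusted p = 0.124). The only library with circRNA_1085, Ov1, was the one where this mRNA was highest.

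LOC105126127 (XM_011026893.1), an uncharacterized gene overlapped by the antisense circRNA_0028, was at 1.52, 0.733 and 0.847 FPKM in Li1 to Li3 and at 2.22 to 5.55 FPKM in the 9 other libraries. The log2 difference was 1.31 in Bo/Li (SE 0.31, limma adjusted p = 0.0845) and 1.28 in Ov/Li (SE 0.31, limma adjusted p = 0.0883). With the replicate number as a block in La and Ov, limma called both hosts. LOC105115895 then had an adjusted p of 0.0373 in Ov/Li and 0.0345 in Bo/Li, and LOC105126127 of 0.0492 in Ov/Li. That fit called 6.82% of all mRNAs. With only the groups of the pair in the fit, 0.371% of all mRNAs were called in some pair, among them LOC105115895 in Bo/Li (limma adjusted p = 0.0443).

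For each single-library antisense circRNA, the level of its host in that library was ranked among the 12 libraries. For the 21 such circRNAs whose host had at least 0.5 FPKM, the host was above its median over the 12 libraries in 7, among its 3 highest values in 6 and at its highest in 1. The median rank from the highest was 8 of 12. With FPKM summed per gene the host was above its median in 5 of 21. These circRNAs are not independent, since 4 of them share the host XM_011045047.1, which was not above its median in any of their libraries. The counts were not set against those of a library taken at random, so they are not read as a relation to the host. For the 4 intronic circRNAs of this kind, the host was above its median in 2.

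Only circRNA_0581 allowed its level to be set against that of its host across libraries. XM_011040645.1 was at 6.51 FPKM in La2 and 6.17 FPKM in Ov2 and at 1.27 FPKM or less in the other 10 libraries. circRNA_0581 was at 0 in both La2 and Ov2, and also in Li3, where this mRNA was at 0.0911 FPKM. Over 12 libraries the log2 levels gave Pearson's r = -0.484 (permutation p = 0.0957) and Spearman's rho = 0.0493 (permutation p = 0.886). Without La2 and Ov2, the libraries farthest from the median of the host, r was 0.592 (permutation p = 0.0518) and rho was 0.721 (permutation p = 0.0240, n = 10). The sign of r therefore rested on those 2 libraries, and the relation did not hold without them.

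With the FPKM of LOC105135661 summed over its 6 mRNAs (0.27 to 8.51 FPKM), r was -0.297 (permutation p = 0.342) and rho was -0.338 (permutation p = 0.283). Without Li2 and Li3, the libraries farthest from the median, r was -0.747 (permutation p = 0.0109) and rho was -0.693 (permutation p = 0.0321). La2 and Ov2 carry the same number, and such libraries of La and Ov deviate together, so they may not be independent. No such relation could be computed for circRNA_0649, whose host was at 0 in effect. circRNA_0229 was above 0 in only 4 libraries, under the 6 set for this comparison.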

How the data were processed

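Ribosomal-RNA-depleted, strand-specific (dUTP) total RNA of 12 leaf samples was sequenced by the authors as paired-end reads and referred to the assembly PopEup_1.0. The authors called circRNAs with CIRI, and the deposited circRNA values are RPM, junction reads scaled to library size. For mRNAs and lncRNAs the deposited unit is FPKM, which the authors estimated with Bowtie2 and eXpress on transcripts, with multiple alignments of a read allowed, so that isoforms and near-identical genes share reads. TopHat2 and Cufflinks are also named in the submitters' processing notes. The versions of the tools other than CIRI are not given in the sources used here, and the read depth behind the FPKM is unknown.

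Groups and replicate numbers were taken from the sample titles. Members, gene lists and tests were chosen with earlier results of these data known. Gene symbols came from a RefSeq gene table (assembly PopEup_1.0), which matched the hosts of all 39 circRNAs. limma 3.58.1 in R 4.3.3 was fitted with a mean-variance trend on log2(RPM + 0.0116), for circRNAs above 0 in at least 3 libraries, and on log2(FPKM + 1), for mRNAs with a mean of at least 0.5 FPKM. A fold change on these scales understates the change of low features. Benjamini-Hochberg adjustment was made over all features tested, at a threshold of 0.05. Numbers, sums and shares per library were tested by exact permutation, and correlations by 100000 permutations. The scripts were tested on simulated data. Junction reads inferred from the RPM steps are reads without molecular identifiers and describe counting depth only.

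All members were accounted for. Those above 0 in at least 3 libraries were named with every value, as were the 5 with the highest RPM among the rest. Hosts were named for the recurrent antisense circRNAs, for calls, for the 3 highest mean FPKM and for more than 1 member.

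Libraries of equal number deviated together in La and Ov, with correlations of the deviations from the group mean of 0.25, 0.64 and 0.66 over mRNAs and 0.16, 0.36 and 0.47 over circRNAs. By the rule that every pair exceeds 0.1, the numbers pair the samples there. The pairing comes from the data, and no label states a shared tree or day. The rule was not met by the other pairs of groups. Over mRNAs, Bo and Ov came nearest, with 0.32, 0.04 and 0.29 for numbers 1 to 3. Over circRNAs the same correlations were 0.08, -0.04 and -0.16.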

Additional observations from a re-analysis of the deposited data

How the results depend on the processing

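Leaving out each library in turn, the exact permutation p of the number of antisense circRNAs ranged from 0.0414 (without Ov1) to 0.357 and that of the summed antisense RPM from 0.358 to 0.828. For intronic circRNAs it ranged from 0.0844 to 0.451 for the number and from 0.0494 (without Li1) to 0.394 for the sum. The share at 2 reads moved between 1.01 and 5.66 percentage points, and turned to -7.54 at 3 reads or fewer, where the cause was not tested. The r of circRNA_0581 and its host ranged from -0.700 (without Li3, permutation p = 0.0178) to -0.265. No circRNA of the 3 tested was called by limma in any alternative run.

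The count of hosts called was 0 without each library, 1 with only the groups of a pair in the fit (LOC105115895, Bo/Li, limma adjusted p = 0.0443), 2 with the replicate block in La and Ov, and 13 at an unadjusted p. Over that replicate block, all mRNAs called rose from 236 to 2203 and circRNAs from 0 to 5, none of them a member. With the replicate block over all 4 groups, 718 mRNAs and no host were called. With permutations inside replicate numbers (replicate block), p was 0.0903 for the number and 0.220 for the sum of antisense circRNAs, and 0.292 and 0.271 for intronic ones. The block changed no other call. The alternatives with FPKM summed per gene, with the 5 circRNAs of LOC105138835 counted as 1 and without circRNA_0229 were added after the data were seen. A count test on junction reads (edgeR) was planned and not run, since the read numbers are inferred from the RPM steps.

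Depth limits these circRNAs. A value of 2 reads, the highest of 14 antisense circRNAs, is also the lowest that is listed, so absence in another library is not detectable at this depth.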

Other observations

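Only long non-coding transcripts with a listed position were compared, and such transcripts overlapped 5 members. On the strand of the circRNA lay TCONS_00003350 (circRNA_0070), at 1.28 to 6.69 FPKM, TCONS_00010226 (circRNA_0175), at 0.73 to 6.73 FPKM, and TCONS_00040303 (circRNA_0649). TCONS_00066219 and TCONS_00066222 lay on the strand of circRNA_1089 at 1.04 FPKM or less. TCONS_00066207, on the strand opposite to circRNA_1089, was at 0 to 18.2 FPKM. On the strand opposite to circRNA_0586 lay TCONS_00037076, at 1.18 to 7.32 FPKM, and TCONS_00037077, at 4.95 to 22.6 FPKM. For circRNA_0070 and circRNA_0649 the host mRNA was at 0 in effect in every library. The long non-coding transcript of the circRNA's own strand was above 1 FPKM in all 12 libraries. That of circRNA_0649 overlaps it only from 49172 to its end at 49680. Whether either transcript gives rise to the circRNA was not tested.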
